A study of Caenorhabditis elegans with 4 samples.

Results

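The regions described are the LIN-13 binding peaks on chromosome III of C. elegans. They were taken as every row on that chromosome in the combined peak list of a ChIP-seq experiment, which gave 842 of 3503 peaks. The lists of the separate samples held 395 of 1494 peaks on III in ChIP replicate 1 and 497 of 1997 in ChIP replicate 2. ChIP-seq pulls down DNA bound by a protein and sequences it, and a peak is a stretch where the pulled-down reads exceed the control reads. The study had 2 ChIP samples, collected with a goat antibody against GFP, and 2 input samples of total chromatin. In the labels the descriptions of ChIP and input look exchanged, so groups were taken from titles, with which source names and peak lists match. All 4 came from L2 hermaphrodites of strain OP49 grown at 20 degrees, a stage early in larval growth. The strain carries the mutation unc119(ed3) and the bombarded transgene wgIs49, which encodes LIN-13 fused to the TY1, EGFP and FLAG tags together with a rescuing copy of unc-119.

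Several features limit these animals as a model. The number of transgene copies and their place in the genome are not given in the labels, and no lin-13 mutation is listed, so untagged LIN-13 can be present beside the fusion. Both lin-13 and unc-119 are genes of chromosome III, and extra copies of their regions could add reads there. The positions of the 2 genes in the build of the files, WormBase WS180, were not used here, so the part of such copies in any count was not tested. Whole larvae were used, so strong binding in few cells and weak binding in many cannot be told apart. Separate cultures are not stated for the replicates, so what differs between them could be technical.

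LIN-13 is a large nuclear protein with many zinc fingers. It belongs to the synMuv B class, genes whose loss, together with that of a synMuv A gene, turns on vulval fates in cells that normally do not take them. It carries a motif by which it can bind LIN-35, the worm counterpart of the Rb tumour suppressor, and it acts with HPL-2, a heterochromatin protein of the HP1 family. In C. elegans autosomes the centres hold most of the broadly expressed genes, while the arms are richer in repeats and in methylation of histone H3 at lysine residues linked to silencing.

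Chromosome III carried more LIN-13 peaks per length than any other chromosome, and every whole window along it held more than the typical window elsewhere on the autosomes. The combined list had 61.1 peaks per Mb on III, against 33.3 ± 4.66 on the other autosomes (SD, n = 4 chromosomes) with a range of 26.3 to 36.4. Replicate 1 had 28.7 peaks per Mb on III, against 13.3 ± 2.06 on the other autosomes. Replicate 2 had 36.1 on III, against 18.6 ± 3.36. In each list III was the highest of the 5 autosomes, which an exact permutation test over chromosomes (two-sided) puts at p = 0.2. That is the smallest p that 1 chromosome against 4 can give, so no comparison between chromosomes here can pass 0.05. Peaks covered 3.86% of III, against 2.42 ± 0.314% of the other autosomes.

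Cut into whole windows of 1 Mb, chromosome III had 38 to 91 combined peaks per window (median 63, 13 windows), against 9 to 63 on the other autosomes (median 34, 67 windows). All 13 windows of III lay above the median of the other autosomes, and 6 lay above their highest window. In replicate 1 the windows of III held 19 to 54 peaks (median 28), against 3 to 25 (median 12), and in replicate 2 they held 24 to 56 (median 39), against 3 to 39 (median 18). All 13 windows lay above the other autosomes' median in each replicate list too.

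**Figure D1:**
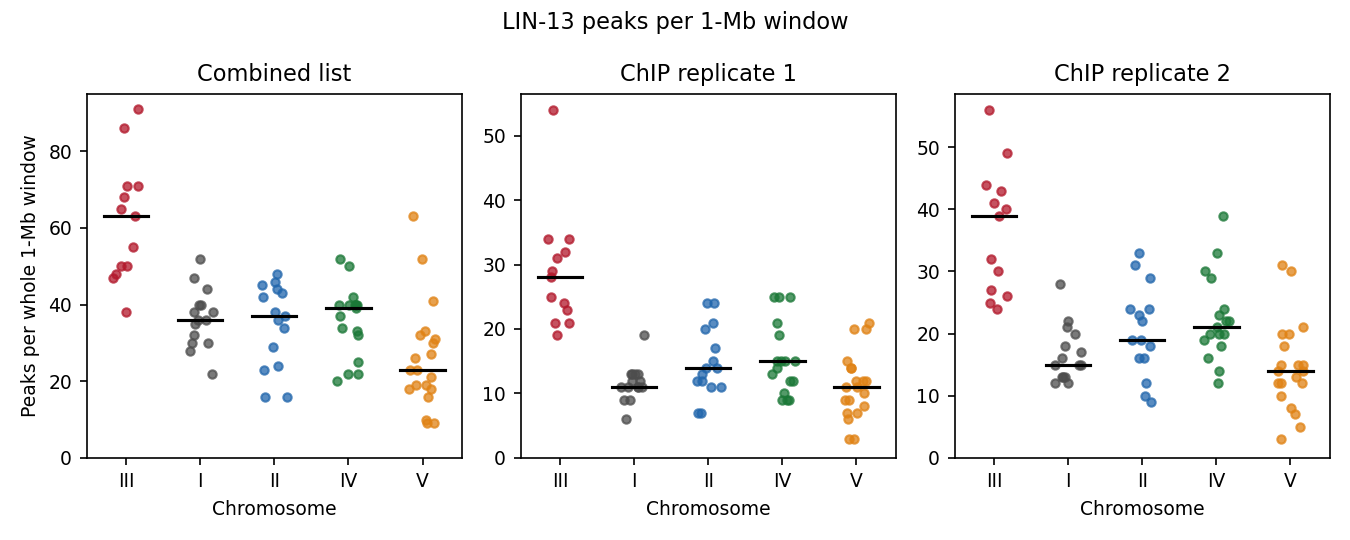
Number of LIN-13 peaks in each whole 1-Mb window (points) with the median (line), for chromosome III and the other autosomes, in the combined list and in each ChIP replicate. The median of III, 63 in the combined list, lies above the medians of chromosomes I, II, IV and V, which are 36, 37, 39 and 23.

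The peaks of III were spread over the chromosome, with the most combined peaks in the window of 1 to 2 Mb and the fewest in the one before it. Going from the left end, the 13 whole windows held 38, 91, 48, 71, 65, 86, 63, 68, 71, 47, 55, 50 and 50 combined peaks, and the incomplete last one held 39. With arms taken as the outer 25% at each end, 204 peaks (24.2%) lay in the left arm, 456 (54.2%) in the centre and 182 (21.6%) in the right arm. Replicate 1 had 114, 194 and 87 peaks in these 3 parts and replicate 2 had 112, 276 and 109. The left arm thus held 28.9% of the peaks of replicate 1 and 22.5% of those of replicate 2. In the combined list both arms together held 45.8% on III, against 43.3 ± 6.35% on the other autosomes, whose range of 33.8 to 46.9% includes III. In replicate 1 they held 50.9%, above the range of 36.0 to 48.9%. In replicate 2 they held 44.5%, within the range of 35.4 to 47.4%.

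The window of 1 to 2 Mb had the highest count of III in the combined list and replicate 1, but not in replicate 2. Its combined count was 91, close to the 86 of the window of 5 to 6 Mb. For replicate 1 these windows held 54 and 34 peaks, while for replicate 2 the order turned, with 49 and 56. The window of 1 to 2 Mb was 1 of only 2, among 13 whole windows, where replicate 2 did not exceed replicate 1. Of its combined peaks, 16 (17.6%) overlapped replicate 1 alone, against 49 of 751 (6.52%) on the rest of III. Some windows with fewer peaks on other chromosomes had a higher share. These were 0 to 1 Mb on II (18.75%), and 10 to 11 Mb (21.1%) and 11 to 12 Mb (18.2%) on X. The share found in both replicates was 40.7% in the window of 1 to 2 Mb on III, against 36.8% on the rest of III. Its peaks had a median width of 382 bp, against 454 bp on the rest of III. Without this window III still had 58.8 combined peaks per Mb. This window was picked with its values known, and it has no test.

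At a finer scale, 22 of the 138 bins of 100 kb on III (15.9%) held 10 or more combined peaks, against 11 of 688 (1.60%) on the other autosomes. A bin with no peak occurred once on III (0.725%), against 86 times (12.5%) on the other autosomes. The median bin held 6 peaks on III, against 3. The variance of the bin counts divided by their mean was 2.05 on III, within the range of 1.54 to 2.28 on the other autosomes. Across the 138 bins of III the numbers of replicate 1 and replicate 2 had Pearson's r 0.81 and Spearman's rho 0.79. These are descriptions across bins that share their libraries.

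The 5 densest bins began at III 1900001, with 20 combined peaks, at 1500001 and 7100001, with 16 each, at 6100001, with 15, and at 3700001, with 14. They differed in how far the replicates supported them. In the bin at 1900001, 15 of the 20 peaks were found in both replicates, and the replicates had 18 and 15 peaks of their own. In the bin at 6100001, 1 of the 15 peaks was found in both, and the replicates had 3 and 8. The bins at 1500001, 7100001 and 3700001 had 3, 7 and 3 peaks found in both.

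The 20 peaks of the densest bin lay within 58942 bp, from III 1899875 to 1958816, with a median gap of 771 bp between neighbours. They had −log10 q of 4.65 to 52.4 (median 17.7) and widths of 107 to 1509 bp (median 651 bp). Here q is the false discovery value that PeakSeq assigned to each peak, and a higher −log10 q means a peak better separated from control. The strongest of the 20 was III:1937977-1938983, with −log10 q of 25.3 in replicate 1, 24.9 in replicate 2 and 52.4 in the combined list. Next came III:1920831-1921836, with 28.2 in replicate 1, 28.4 in replicate 2 and 50.6 in the combined list. These 2 peaks were 1007 and 1006 bp wide. The widest of the 20 was III:1926081-1927589, with 19.5 in replicate 1 and 22.8 in replicate 2.

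Peaks on III lay closer to each other than on the other autosomes. The median gap from the end of a peak to the start of the next was 7931 bp on III, against 14059 ± 1462 bp on the other autosomes (SD, n = 4), in the combined list. It was 19892 bp against 43952 ± 5880 bp in replicate 1 and 13076 bp against 31145 ± 4334 bp in replicate 2. The exact permutation test over chromosomes gave p = 0.2 for each list. Gaps over 50 kb made up 7.25% of the gaps on III, against 17.99 ± 2.24%, and gaps up to 1 kb made up 14.3%, against 12.5 ± 1.81%. Gaps up to 2 kb made up 24.0%, against 20.6 ± 2.26% with a range of 17.9 to 23.2% (exact permutation p = 0.4). The share on III thus lay outside the range of the other autosomes for the gaps over 50 kb and up to 2 kb, and within it for those up to 1 kb. Divided by the mean gap of its chromosome, the median gap in the combined list was 0.504 on III, against 0.432 to 0.512 on the other autosomes, a range that includes III. In replicate 1 it was 0.581 on III, against 0.558 to 0.614, which includes III as well. In replicate 2 it was 0.482 on III, against 0.541 to 0.626, and III was the lowest autosome (exact permutation p = 0.2). The coefficient of variation of the gaps was 1.27 on III, against 1.46 ± 0.156, in the combined list (exact permutation p = 0.4). It was 1.30 against 1.24 ± 0.112 in replicate 1, the opposite direction, and 1.26 against 1.32 ± 0.178 in replicate 2, both within the range of the other autosomes (exact permutation p = 0.8 for each).

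**Figure D2:**
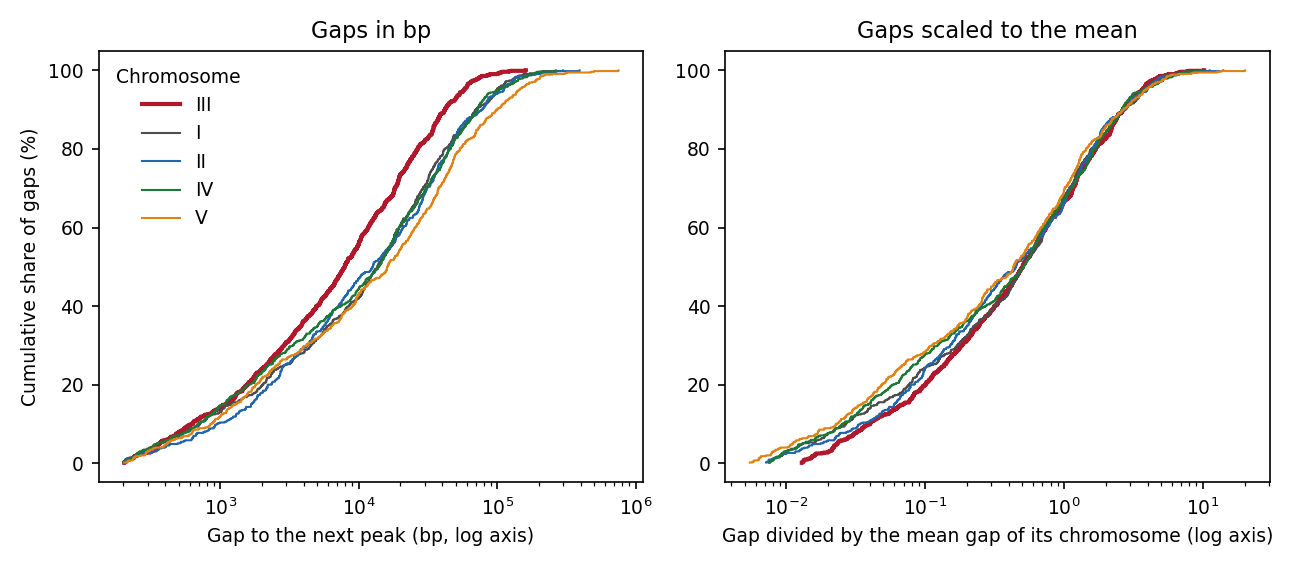
Cumulative share of gaps between neighbouring combined peaks on chromosome III and the other autosomes, in bp (left) and divided by the mean gap of each chromosome (right), both on log axes. The median of III in bp, 7931, is the lowest of the 5 autosomes, and after scaling its median of 0.504 lies within the range of the others.

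The 841 gaps of III ranged from 203 bp to 160975 bp, with quartiles of 2157 and 21611 bp. The 3 longest stretches with no combined peak were III:9929364-10090338, III:1284918-1408924, which lies in the densest window, and III:2210254-2330982, of 160975, 124007 and 120729 bp. Neither replicate had a peak in any of the 3.

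Clusters were taken as runs of 3 or more peaks with gaps of at most 2000 bp. On III 154 of 842 combined peaks (18.3%, Wilson interval 15.8 to 21.0%) lay in 44 clusters, beside 13.3% of all combined peaks and 12.7 ± 1.86% on the other autosomes (exact permutation p = 0.2). In the replicate lists III was not the highest autosome. It had 8.86% of peaks in clusters in replicate 1, against 5.44 ± 3.70%, and 8.85% in replicate 2, against 6.73 ± 2.09% (exact permutation p = 0.6 for each). With the gap limit scaled to each chromosome's own mean gap, the combined share turned to 9.38% on III, against 13.9% on the other autosomes. Of the 44 clusters 33 had 3 peaks, 7 had 4, 2 had 5, 1 had 8 and 1 had 9. They spanned 2113 to 15490 bp, with a median of 4586.5 bp.

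The cluster with most peaks was III:1920831-1932649, in the densest bin, where 9 peaks covered 60.1% of 11819 bp. Each replicate had 8 peaks in it, and 8 of the 9 combined peaks were found in both. The next, III:7717370-7732859, had 8 peaks over 15490 bp, of which 3 were found in both replicates, 2 in replicate 2 alone and 3 in neither. The next was III:343626-358140, with 5 peaks over 14515 bp, of which 3 were found in both, 1 in replicate 2 alone and 1 in neither. III:12605920-12617252 also had 5 peaks, with a smaller summed width, over 11333 bp, of which 2 were found in both and 3 in neither. In 3 of the 44 clusters all peaks were found in both replicates, and in 10 none was. Of all peaks in clusters on III, 42.2% were found in both, against 36.0% of the other peaks of III. On the other autosomes these shares were 35.8% and 34.5%. Peaks in clusters were wider than the others on III, at a median of 620.5 bp against 430.5 bp, and had a median −log10 q of 8.47 against 6.73. On the other autosomes these medians were 668.5 against 494 bp and 7.11 against 6.87.

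The 10 strongest peaks of III, taken by q in the combined list, were all found in both replicates. In the strongest of 4 classes by q this share was 92.0% on III, against 93.9 ± 2.82% on the other autosomes. If the combined list was made from these ChIP samples, the link between its q and the replicates is built in. The −log10 q of the 10 in the combined list ran from 75.7 to 134.5. Their widths ran from 762 to 5424 bp with a median of 2005.5 bp. The value of replicate 2 was above that of replicate 1 in all 10. The strongest was III:3866738-3867872, 1135 bp wide, with −log10 q of 83.2 in replicate 1, 100.9 in replicate 2 and 134.5 in the combined list. It ranked 5 in replicate 1, 7 in replicate 2 and 8 in the combined list over all chromosomes. Its last base was the same in all 3 lists, which happened for 1 of the 313 peaks found in both replicates.

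Among the rest of the 10, some were broad domains. III:13066745-13071937 spanned 5193 bp, with −log10 q of 44.3 in replicate 1 and 56.4 in the better of 2 peaks in replicate 2. III:7707794-7712531 spanned 4738 bp, with 43.2 in replicate 1 and 46.2 in replicate 2. III:62179-67602, near the left end, spanned 5424 bp and was the widest of III. In the replicates it was broken into 3 and 2 peaks, the best with −log10 q of 26.3 in replicate 1 and 38.2 in replicate 2.

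Others of the 10 were less broad, though each was wider than the upper quartile of III, 698 bp. III:7854183-7854995 was 813 bp wide, with −log10 q of 57.3 in replicate 1 and 61.1 in replicate 2. III:7162042-7162803 was 762 bp wide, with 38.4 in replicate 1 and 52.1 in replicate 2. III:10758478-10760056 was 1579 bp wide, with 60.4 in replicate 1 and 63.6 in replicate 2, and ranked 10 in the list of replicate 1. The last 3 were III:13462567-13465553 (2987 bp), III:1615990-1617635 (1646 bp) and III:1418664-1421028 (2365 bp). Their −log10 q was 36.3, 46.8 and 39.2 in replicate 1 and 54.0, 54.1 and 41.0 in replicate 2.

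The 5 widest peaks of III included 3 of these 10. The other 2 were III:12612216-12616351 (4136 bp) and III:346768-350785 (4018 bp). In the list of replicate 2 each of them fell into 2 peaks. Replicate 1 had 2 peaks in III:12612216-12616351 and 1 peak in III:346768-350785. Over III, 12 combined peaks held 2 or more peaks of replicate 1 and 17 held 2 or more of replicate 2. Where a combined peak was found in both, the peaks of replicate 1 covered a median of 82.0% of it and those of replicate 2 a median of 84.7%.

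Chromosome III had 2 of the 20 strongest combined peaks, 30 of the best 100 (30%, Wilson interval 21.9 to 39.6%) and 143 of the best 500 (28.6%, 24.8 to 32.7%), beside 24.0% of all combined peaks. It had 3 of the best 20, 31 of the best 100 and 140 of the best 500 in replicate 1, and 2, 30 and 139 in replicate 2. The strength of a typical peak on III lay within the range of the other autosomes in each list. The median −log10 q in the combined list was 7.05 on III, against 6.91 ± 0.340 on the other autosomes. It was 6.27 against 6.27 ± 0.279 in replicate 1 and 6.57 against 6.52 ± 0.298 in replicate 2 (exact permutation p = 1 for each list).

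Peaks on III had a lower median width than those of each other autosome, except among the strongest. The median width was 448 bp (quartiles 310 and 698 bp), against 513 ± 17.6 bp on the other autosomes with a range of 492.5 to 533 bp (exact permutation p = 0.2). It was 467 bp against 510 ± 32.6 bp in replicate 1 and 464 bp against 505.5 ± 27.0 bp in replicate 2, the lowest autosome in each (exact permutation p = 0.4). Of the 842 peaks, 60 (7.13%) were 1500 bp or wider, beside 7.94% of all combined peaks. Another 23 (2.73%) were under 100 bp, beside 1.51% of all combined peaks. On the other autosomes this share was 1.25 ± 0.547%, with a range of 0.547 to 1.88% and 3 to 10 peaks each (exact permutation p = 0.2).

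With the combined list divided by q into 4 classes of about equal size, 226 peaks of III were in class 1, the strongest, and 202, 215 and 199 in classes 2, 3 and 4. In class 1 their median width was 804.5 bp, against 787 ± 30.5 bp on the other autosomes (exact permutation p = 1). In class 2 it was 477.5 bp, against 552 ± 29.0 bp, in class 3 363 bp, against 444 ± 11.5 bp, and in class 4 301 bp, against 394 ± 28.0 bp. In these last 3 classes III was the lowest autosome (exact permutation p = 0.2 for each). Among the 313 peaks found in both replicates the median on III was 654 bp, against 668 bp as the mean of the other autosomes' medians, whose range of 623 to 697 bp includes III.

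**Figure D3:**
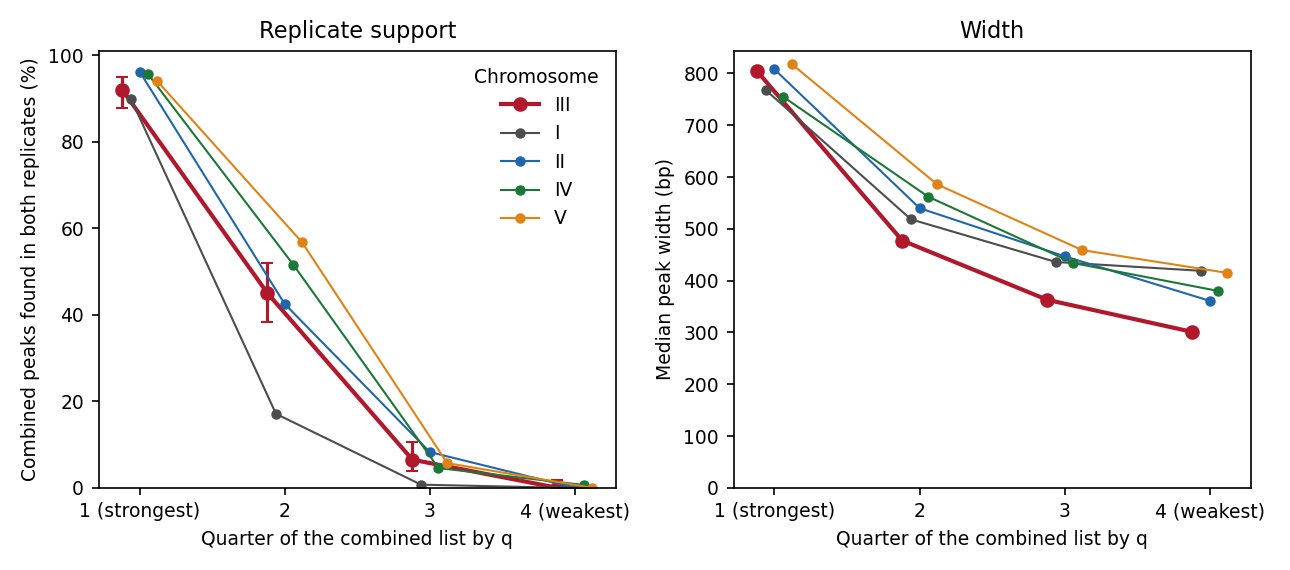
Share of combined peaks found in both replicates (left) and median width in bp (right) in each of the 4 strength classes of the combined list by q, for chromosome III and the other autosomes. Bars on III are 95% Wilson intervals, and III has the lowest median width in the 3 weaker classes, at 477.5, 363 and 301 bp, while its share found in both lies within the range of the others in all 4.

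The replicates supported the peaks of III about as often as those elsewhere, but a larger share overlapped a called peak of replicate 1 alone than on the other autosomes. Both replicates had a peak overlapping 313 of the 842 by at least 1 bp (37.2%, Wilson interval 34.0 to 40.5%), beside 35.7% of all combined peaks and 34.6 ± 4.75% on the other autosomes. A further 154 (18.3%) overlapped replicate 2 alone, beside 18.2% over all chromosomes. Another 310 (36.8%) overlapped neither, beside 40.9%. The 65 that overlapped replicate 1 alone made up 7.72% (Wilson interval 6.10 to 9.72%), beside 5.17% over all chromosomes. On the other autosomes that share was 3.98 ± 1.05%, with a range of 2.92 to 5.27%, and III was the highest autosome (exact permutation p = 0.2). Chromosome X was nearer to III, at 6.59% (Wilson interval 4.57 to 9.41%). Without the window of 1 to 2 Mb the share was 6.52% on III.

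Counts from the side of the replicates cover largely the same peaks, since 390 of the 395 replicate 1 peaks of III overlapped a combined peak. They are thus not a separate observation. Replicate 1 had 395 peaks on III, and 322 of them overlapped one of replicate 2 (81.5%, Wilson interval 77.4 to 85.0%), beside 86.7% over all chromosomes. On the other autosomes the share was 89.5 ± 1.96%, with a range of 87.1 to 91.4%, so III lay below all 4. On chromosome X it was 84.3%. Replicate 2 had 497 peaks on III, and 323 of them overlapped one of replicate 1 (65.0%, Wilson interval 60.7 to 69.1%), beside 64.4% over all chromosomes and 63.5 ± 1.81% on the other autosomes, whose range includes III. An exact permutation test over chromosomes, run on these shares although they had been planned as a description, gave p = 0.2 for replicate 1 and p = 0.8 for replicate 2.

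Support fell with strength. On III both replicates had 92.0% of the peaks of class 1, 45.05% of class 2, 6.51% of class 3 and 0 of 199 of class 4, which allows up to 1.89% (upper Wilson bound). In class 2, 12.4% of the peaks of III overlapped replicate 1 alone, against 6.25 ± 2.39% on the other autosomes (exact permutation p = 0.2). In class 3 it was 13.95%, against 6.91 ± 3.92% (exact permutation p = 0.4). Chromosome X had 15.2% in class 2 and 8.16% in class 3. In class 1 the share on III was 1.33%, against 0.708 ± 0.590%, within the range of the other autosomes. The typical peak of III in both replicates had −log10 q 16.9 and a width of 654 bp, as medians. Those in replicate 1 alone had 6.57 and 370 bp, those in replicate 2 alone 7.07 and 435.5 bp, and those in neither 4.53 and 332.5 bp. If the combined list was made from these ChIP samples, which the sources do not state, the link between its q and the replicates is built in, and it has no test.

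Where peaks of the 2 replicates overlapped, their midpoints mostly lay close together. Each pair was a replicate 1 peak and the replicate 2 peak it overlapped most, so closeness is partly built in by this choice. Over the 322 pairs on III the midpoints differed by a median of 46 bp, and 235 pairs (73.0%) had midpoints within 100 bp, beside 74.3% of pairs on the other autosomes. Starts differed by a median of 56 bp and ends by 51.5 bp. Across these pairs the −log10 q values gave rho 0.79 (Spearman) and r 0.94 (Pearson), as a description across peaks that share their libraries. Replicate 2 had the higher value in 234 pairs (72.7%), against 75.9% on the other autosomes, with a median ratio of replicate 2 to replicate 1 of 1.19 on III and 1.22 on the other autosomes. Depth is unknown and q depends on it, so this ratio does not give a difference in binding.

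**Figure D4:**
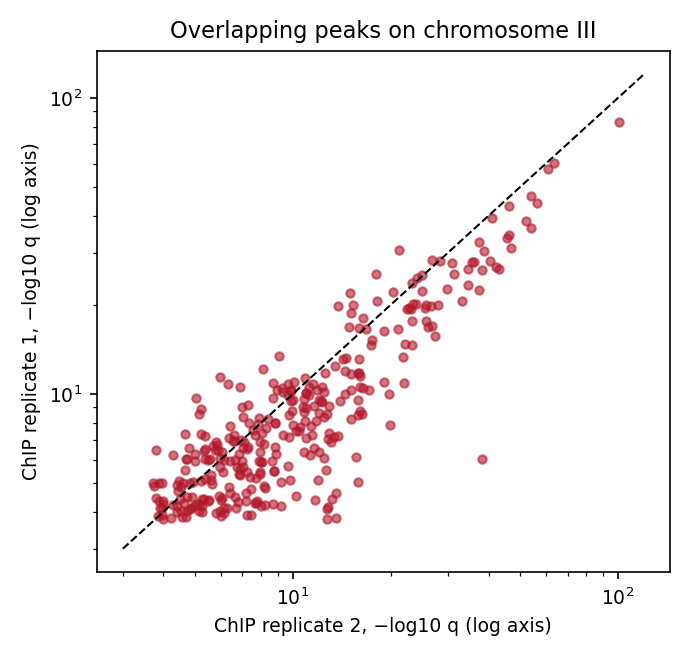
The −log10 q of the 322 pairs of overlapping peaks on chromosome III, with replicate 2 on the x axis and replicate 1 on the y axis, both on log axes. The dashed line marks equal values, and 234 pairs lie below it, where replicate 2 is higher.

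Some peaks had no partner in the other list. In replicate 1 the best that overlapped no peak of replicate 2 were III:1516413-1517036 (−log10 q 10.9), III:2100806-2101336 (9.41) and III:1506741-1507192 (6.65), of 73 such peaks. In replicate 2 they were III:10810863-10812403 (12.9), III:7736898-7738366 (11.3) and III:4269257-4270120 (10.3), of 174. The peaks named for replicate 1 lay further left than those named for replicate 2, and the positions of the rest were not compared. The best combined peaks that overlapped neither replicate were III:8866358-8868502, 2145 bp wide with −log10 q of 16.5, which puts it in class 1, III:12625676-12626474 (8.93), III:4650673-4651629 (8.66) and III:1742854-1743891 (8.64).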

How the data were processed

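ChIP DNA and input chromatin of LIN-13::GFP larvae were sequenced after crosslinking with 2% formaldehyde, per the labels' protocols. The authors deposited 3 peak lists, called with PeakSeq on WormBase WS180, per the file headers and peak records. The deposited records give coordinates and a q-value for each peak. For the aligner, the filters, the q cut-off and the making of the combined list, nothing is given in the sources used here. Input samples have no peak list of their own, so no value was computed from them apart from any use as control in the deposited calls. Depth is unknown, since the lists hold no counts, and it limits any reading of peak numbers.

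Computed from the lists were −log10 q, widths, gaps, overlaps of at least 1 bp, clusters, and counts by midpoint in windows of 1 Mb and 100 kb. The highest peak end over the 3 lists stood for the length of a chromosome. Chromosome III was set against the other 4 autosomes by an exact permutation test (two-sided, 5 arrangements) with chromosomes as units, since peaks are not replicates. Wilson intervals at 95% cover counting error only. Members, rules and lists were chosen with earlier results of these data known. The regions named were the 10 strongest, the 5 widest, the 5 densest bins, the largest clusters and empty stretches, and the best peaks without a partner, together with the peaks singled out in the densest bin and the narrowest 3. The share found in replicate 1 alone, the share under 100 bp and the 4 strength classes were added after the lists were seen. A genome and annotation of WS180 were not used here, so no sequences or genes are given for peaks. The overlap and cluster procedures were tested on simulated lists. Calculations ran in Python 3.11.15 with pandas 2.3.3, scipy 1.17.1 and numpy 2.4.6, and plots were drawn with matplotlib 3.10.9.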

Additional observations from a re-analysis of the deposited data

How the results depend on the processing

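Of 48 alternatives over 11 results, 37 kept their direction or stayed within the interval of the reported value. Of these 48, 7 were chosen after seeing the data. The excess of peaks per Mb on III over the mean of the other autosomes ranged from 11.3 to 27.9. The difference in median width ranged over −65 to −13.75 bp, and that in median gap over −24061 to −6128 bp. The difference in the share found in both replicates ranged from 1.11 to 3.06 percentage points. For the share of combined peaks overlapping replicate 2, whatever replicate 1 had, the difference was 2.26 points. For the share overlapping replicate 1, whatever replicate 2 had, it was 6.35 points. The difference in the share in replicate 1 alone ranged from 2.54 to 4.18 points. The share in clusters was 5.57 points above the other autosomes. It was 2.13 points above with a gap limit of 1000 bp, 10.2 with 5000 bp and 4.35 with clusters of 2 or more. Among peaks with q up to the median it was 4.78, in the list of replicate 1 3.42 and in that of replicate 2 2.12. It turned to −4.52 points with the gap limit scaled to the mean gap of each chromosome, where the scaling itself takes density out. The difference in median −log10 q was 0.138 and turned to −0.00397 without replicate 2, and it was 0.0450 without replicate 1. The cause was not tested. The share of III peaks in arms was 45.8%. It was 44.5 to 50.9% with the list of 1 replicate, and 62.4% with wider arms that make up 66.7% of the length. The share of replicate 1 peaks on III found in replicate 2 was 73.2% with reciprocal overlap of 50%, 72.4% with midpoints within 200 bp and 72.4% with equal numbers of best peaks. For replicate 2 these were 58.1, 57.5 and 77.3%. Spearman's rho was 0.85 with reciprocal overlap. A replicate was left out by taking the other one's list, without a new combined call, except for the share found in both replicates. There the combined list was kept, and only overlap with the remaining replicate was counted. No paired analysis was possible because input values did not enter any comparison.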

Other observations

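Some features of the lists bear on the narrow and closely spaced peaks of III. The smallest gap was 200 bp in the combined list and 204 bp in each replicate list over all chromosomes, and no neighbours overlapped. The narrowest combined peaks of III were III:8737169-8737174 and III:8518995-8519000, of 6 bp each, and III:3794655-3794663, of 9 bp. The first 2 overlapped neither replicate, and the last overlapped a peak of replicate 2 that was 208 bp wide and ended on the same base. The part of the caller's joining and trimming of peaks in these values was not tested.

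Most replicate 1 peaks of III overlapped a combined peak, 98.7%, against 99.1 to 100% on the other autosomes and 99.0% on X. In replicate 2 this share was 96.6%, against 96.2 to 99.6% on the other autosomes and 96.6% on X. A few replicate peaks of III were absent from the combined list, namely 5 of 395 in replicate 1 and 17 of 497 in replicate 2. The strongest were III:5999637-6000345 (−log10 q 7.14), III:5755212-5755763 (6.66) and III:8157827-8158227 (4.73) in replicate 2, and III:2487096-2487412 (4.12), III:2140391-2140599 (4.04) and III:3136127-3136979 (3.94) in replicate 1.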
